A study of Mus musculus with 12 samples.

Results

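The members were 10 mouse genes of the vacuolar ATPase (V-ATPase), the pump that acidifies lysosomes and endosomes: Atp6v0b, Atp6v0c, Atp6v0d1, Atp6v0e, Atp6v0a1, Atp6v1c1, Atp6v1h, Atp6v1a, Atp6v1b2 and Atp6ap1. They were followed through 4 lists of USF2 binding sites, out of 21887 protein-coding genes on the same chromosomes. A gene was called in a list when the summit of a peak, the base with the most reads, lay within 1000 bp of either end of the gene as annotated by RefSeq on GRCm38. Peaks further inside the gene were recorded separately. The lists came from chromatin immunoprecipitation followed by sequencing (ChIP-seq) of USF2 in wild-type mouse embryonic fibroblasts, which are fibroblasts cultured from mouse embryos. There were 2 libraries from glucose-starved cells and 2 from cells in normal culture, and all 4 came from cells with intact Usf2. The labels give neither the length of the starvation nor whether the 2 libraries of a condition stem from different cultures, and their spread may therefore be technical only. Peak lists hold no transcript levels, so the fibroblast label was not checked against marker genes. The 4 lists held 825 and 1178 peaks for starved cells and 1645 and 2124 for normal cells.

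The V-ATPase has a membrane sector, V0, which carries protons across the membrane, and a peripheral sector, V1, which hydrolyses ATP to drive it. In yeast, withdrawal of glucose makes V1 come off V0, and reassembly restores the pump. USF2 is a basic helix-loop-helix leucine zipper factor that binds the E-box CACGTG as a dimer with itself or with USF1. Several other factors, among them the lysosomal regulator TFEB, bind the same core sequence.

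Of the 10 genes, 6 were called in all 4 lists, and they were the only members called at a gene end in any list. These were Atp6v0b, Atp6v0c, Atp6v0d1 and Atp6v0e of V0 and Atp6v1c1 and Atp6v1h of V1. Over all protein-coding genes, 1.13% were called in all 4 lists, 1.78% in both starved lists, 2.19% in both normal lists and 4.05% in any list. The members were chosen with earlier results of these lists known, so their count is a description and carries no test. The other 4 members, Atp6v0a1, Atp6v1a, Atp6v1b2 and Atp6ap1, had no peak at an end or inside the gene in any list. Position set Atp6v0c apart from Atp6v0b, Atp6v0d1 and Atp6v0e: its peak lay at the far end of the gene, at the start of the neighbouring gene Amdhd2. For Atp6v1c1 and Atp6v1h no start is listed, so which end their peaks mark is not known here.

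Promoter sequences of RefSeq (GRCm38.p6) were at hand for 7 of the 10 members. They cover 250 bases before a listed gene start and 50 bases from it on. The stretches below run from 150 bases before the start through its first 30 bases and are written along the gene's own strand, with every CACGTG in capitals. Those of Atp6v0b, Atp6v0d1 and Atp6v0e are shown because the USF2 summits fell in or next to them, and that of Amdhd2 because the peak assigned to Atp6v0c fell on it. Atp6v0c, at its outermost start, and Atp6v1a are shown as examples with no summit within 1000 bp. Of the uncalled members with a promoter sequence, only Atp6v1a held CACGTG. The sequences of Atp6v0a1, Atp6ap1 and the other Atp6v0c starts had neither a summit within 1000 bp nor CACGTG, and are not shown.
Atp6v0b, chr4:117887300-117887479, minus strand: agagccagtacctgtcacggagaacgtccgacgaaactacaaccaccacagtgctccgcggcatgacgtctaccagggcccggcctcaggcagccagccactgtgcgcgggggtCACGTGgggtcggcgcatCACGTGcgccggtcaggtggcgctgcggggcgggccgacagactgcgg
Atp6v0d1, chr8:105566035-105566214, minus strand: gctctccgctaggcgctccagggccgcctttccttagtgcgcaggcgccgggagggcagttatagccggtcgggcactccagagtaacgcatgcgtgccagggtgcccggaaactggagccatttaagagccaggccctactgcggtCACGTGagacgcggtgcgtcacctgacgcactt
Atp6v0e, chr17:26676246-26676425, plus strand: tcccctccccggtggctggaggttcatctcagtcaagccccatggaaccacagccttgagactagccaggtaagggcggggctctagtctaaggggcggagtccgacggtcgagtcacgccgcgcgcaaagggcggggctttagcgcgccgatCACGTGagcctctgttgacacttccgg
Amdhd2, chr17:24163704-24163883, minus strand: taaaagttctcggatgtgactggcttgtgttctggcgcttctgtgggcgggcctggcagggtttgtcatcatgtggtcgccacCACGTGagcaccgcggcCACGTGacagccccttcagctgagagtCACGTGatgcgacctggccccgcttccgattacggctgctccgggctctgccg
Atp6v0c, chr17:24169649-24169828, minus strand: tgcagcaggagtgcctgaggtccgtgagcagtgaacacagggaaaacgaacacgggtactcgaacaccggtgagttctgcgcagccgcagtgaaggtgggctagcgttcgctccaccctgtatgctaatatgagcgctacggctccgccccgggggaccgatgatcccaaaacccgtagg
Atp6v1a, chr16:44139230-44139409, minus strand: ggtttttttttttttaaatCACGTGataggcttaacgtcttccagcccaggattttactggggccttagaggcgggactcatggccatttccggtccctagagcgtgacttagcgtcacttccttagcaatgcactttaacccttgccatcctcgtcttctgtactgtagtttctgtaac
The Atp6v0b stretch holds a pair of E-boxes, those of Atp6v0d1, Atp6v0e and Atp6v1a hold 1 each, that of Amdhd2 holds 3, and that of Atp6v0c holds none.

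Fold enrichment is the ratio that the authors' peak caller gave for each peak, (reads at the summit + 1)/(local background + 1). It ranks peaks within a list. It is not a measure of change between lists, since the starved peaks were called at a larger width (narrowest peak 306 bp, against 152 bp in the normal lists). The reads at the summit belong to the same peaks and are not scaled to library depth, so they are no such measure either. Differences in library depth between the lists were not analysed. In the normal pair the local background was the same, within 0.5%, at 80.2% of 1053 pairs of overlapping peaks and at all 6 V-ATPase regions. In the starved pair it was the same at 1.47% of 543 pairs and at none of the 6. At these 6 regions, the fold enrichments of the 2 normal lists therefore share their denominator and differ through the reads. Over all gene-end peaks the median local background was 0.988 and 1.02 reads in the starved lists, against 0.593 and 0.594 in the normal lists. Over all peaks it was 0.370 and 0.254 reads, against 0.144 and 0.162. A higher starved background at a member is therefore not particular to that member.

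Among the V0 genes, Atp6v0b, which encodes a proteolipid subunit of the membrane ring, had the highest fold enrichment of all members in each list. It was 16.1 and 17.2 in the starved lists, against 21.6 and 22.4 in the normal lists. These values put it at rank 12 of 825 and 5 of 1178 in the starved lists, and at rank 8 of 1645 and 7 of 2124 in the normal lists, always within the first 1.45% of a list. The −log10 q was 26.3 and 28.4 in the starved lists and 37.9 and 39.8 in the normal lists. The reads at the summit were 25 and 25 in the starved lists, against 27 and 28 in the normal lists. The exact 95% Poisson intervals of these counts ran from 16.2 to 40.5 and overlapped throughout. The local background was 0.617 and 0.508 reads in the starved lists, above the 0.297 reads in both normal lists. The medians of all gene-end peaks had the same order.

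The Atp6v0b summits lay 22 to 40 bp from the listed start (chromosome 4, position 117887329, minus strand). In the starved lists they lay 40 and 22 bp after the start, inside the gene. In the normal lists they lay 35 and 32 bp before it, on the outer of the 2 E-boxes (117887360 to 117887365). The inner E-box (117887342 to 117887347) was 53 and 35 bp from the starved summits and 17 and 14 bp from the normal ones. Windows with at least 2 CACGTG made up 0.748% of the 21263 RefSeq promoter windows of protein-coding genes. No other protein-coding gene had an end within 1000 bp of these summits.

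Atp6v0c encodes the main proteolipid of the membrane ring, through which protons pass. Its region (chromosome 17, 24163511 to 24163980) had fold enrichments of 11.1 and 16.4 in the starved lists, against 13.9 and 15.1 in the normal lists, so the 2 conditions overlapped. Its rank was 62 and 8 by fold in the starved lists and 57 and 40 in the normal lists. By −log10 q, which was 20.1 and 29.7 in the starved lists and 41.7 and 48.0 in the normal lists, the rank was 51 and 13 in the starved lists and 7 and 5 in the normal lists. This region held the most reads of all members in every list, with 28 and 30 at the summit in the starved lists and 54 and 59 in the normal lists. Their exact 95% Poisson intervals were 18.6 to 40.5 and 20.2 to 42.8 in the starved lists. In the normal lists they were 40.6 to 70.5 and 44.9 to 76.1. Between the conditions, only the intervals of starved 2 and normal 1 overlapped. These reads are not scaled to library depth, and a change of binding cannot be read from them. Its local background, 1.61 and 0.889 reads in the starved lists and 2.97 in both normal lists, was also the highest of the members in the normal lists. The peaks of the 2 starved lists had the same start coordinate and the same summit.

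This region is far from the start of Atp6v0c. Atp6v0c (24163865 to 24169678) is transcribed on the minus strand, and its 3 listed starts lie at 24169678, 24169450 and 24168809. The summits lay 111 to 131 bp beyond its far end and 5055 to 5075 bp from the nearest of these starts. Amdhd2, an enzyme gene of amino sugar metabolism, starts after a gap of 131 bp on the same strand, at 24163733. The summits lay 1 bp before this start in both starved lists and 12 and 21 bp before it in the normal lists. Of the 3 E-boxes in the Amdhd2 promoter, the one at 24163751 to 24163756 was the nearest, 17 bp from both starved summits and 6 and 0 bp from the normal ones. None of the 3 Atp6v0c promoter windows held CACGTG, and none had a summit within 1000 bp in any list.

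Calls without summits at a listed start were uncommon among called genes. Whether those summits lay at the start of a neighbouring gene, as for Atp6v0c, was not counted. Of 196 genes that were called in all 4 lists at either end and that have a listed start, 16 (8.16%) had no summit of all 4 lists within 1000 bp of a listed start. Counted by listed starts, 3 of the 7 members with one were called in all 4 lists, namely Atp6v0b, Atp6v0d1 and Atp6v0e, beside 1.17% of 17492 protein-coding genes. Atp6v1c1 and Atp6v1h do not enter that count. With Atp6v0c set aside, 5 members had a USF2 peak to which no end of another protein-coding gene lay closer.

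**Figure D1:**
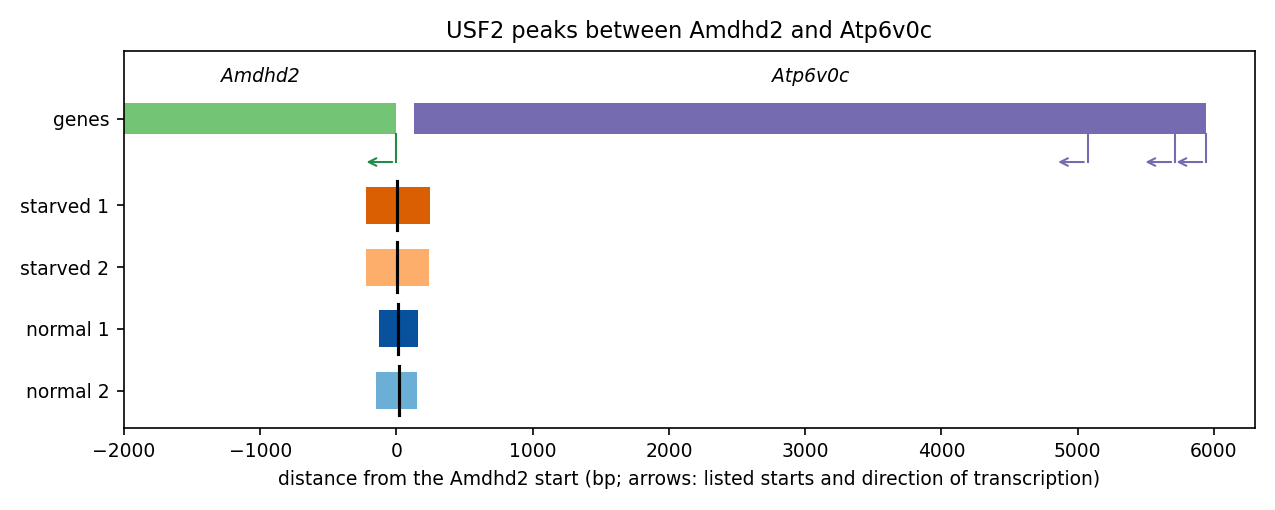
USF2 peaks (bars) and summits (black lines) in the 4 lists, by distance in bp from the start of Amdhd2, with both genes drawn above and their listed starts as arrows in the direction of transcription. All 4 summits stand within 21 bp of the Amdhd2 start, and none of the 3 Atp6v0c starts has a peak.

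Atp6v0d1 encodes the subunit that links the proteolipid ring to the central stalk. Its peak had the lowest fold enrichment of the called members in every list, with values of 4.61 and 5.61 in the starved lists, against 5.52 and 6.50 in the normal lists. The starved and normal values overlapped. It ranked 612 of 825 and 494 of 1178 in the starved lists, and 579 of 1645 and 591 of 2124 in the normal lists. In starved 1 it thus lay below the list's median fold of 5.54, the only member peak below the median of its list. The −log10 q was 4.79 and 7.33 in the starved lists and 5.29 and 8.11 in the normal lists.

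Atp6v0d1 had a high local background and did not have the fewest reads. The summit held 19 and 21 reads in the starved lists and 16 and 19 in the normal lists, more than at Atp6v1h in each list. Its local background was 3.33 and 2.92 reads in the starved lists and 2.08 in both normal lists. The summits lay 7 and 25 bp after the listed start (chromosome 8, position 105566064, minus strand) in the starved lists and 18 bp after it in both normal lists. They were 5 to 23 bp from the single E-box (105566062 to 105566067), which spans the start itself. An end of Agrp, which encodes a feeding neuropeptide, lay 638 to 656 bp from these summits, so the region is also within the window of that gene.

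Atp6v0e encodes a small membrane subunit. Its fold enrichment was 7.63 and 6.73 in the starved lists, against 15.0 in both normal lists. Its rank was 180 of 825 and 287 of 1178 in the starved lists and 47 of 1645 and 45 of 2124 in the normal lists. The reads at the summit were 15 and 16 in the starved lists and 18 in both normal lists, and their intervals overlapped, the normal one running from 10.7 to 28.4. The local background was 1.10 and 1.52 reads in the starved lists and 0.271 in both normal lists. The part of the background in the difference of the fold values was not tested, and a change of binding cannot be read from them.

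The summits of Atp6v0e lay 14 and 60 bp after the start (chromosome 17, position 26676396, plus strand) in the starved lists and 9 and 34 bp before it in the normal lists. The E-box begins at the fourth base of the gene (26676399 to 26676404) and was 6 and 52 bp from the starved summits and 12 and 37 bp from the normal ones. A further peak lay inside the gene in normal 2 alone (26690691 to 26690847, fold enrichment 9.61, 10 reads, 8903 bp from the nearer end). It was the only peak inside a member and away from its ends, and 6.65% of protein-coding genes had such a peak in any list.

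Among the V1 genes, Atp6v1c1 encodes the C subunit, a part of the stator that holds V1 and V0 together. Its fold enrichment was 7.66 and 6.19 in the starved lists, against 11.03 and 9.65 in the normal lists. Its rank was 178 and 369 in the starved lists and 110 and 189 in the normal lists. The reads at the summit were 18 and 17 in the starved lists and 15 and 13 in the normal lists, and their intervals overlapped. The local background was 1.48 and 1.91 reads in the starved lists and 0.451 in both normal lists. The summits lay inside the gene, 28 to 40 bp from its lower-coordinate end (chromosome 15, 38661904) in the starved lists and 7 to 45 bp from it in the normal lists.

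Atp6v1h encodes the H subunit, which in yeast keeps free V1 from hydrolysing ATP. It was the only called member with a higher fold enrichment in both starved lists, 10.04 and 10.1, than in both normal lists, 8.16 and 6.90. The share of all shared regions with such an order was not counted, and a change of binding cannot be read from these values. Its rank was 86 of 825 and 84 of 1178 in the starved lists and 231 of 1645 and 524 of 2124 in the normal lists. It also had the fewest reads of the called members in every list, 14 and 13 in the starved lists and 12 and 10 in the normal lists, so the intervals (6.92 to 23.5 and 4.80 to 21.0) overlapped widely. The local background was 0.494 and 0.381 reads in the starved lists and 0.593 and 0.594 in the normal lists. All summits lay inside the gene, 104 and 110 bp from its lower-coordinate end (chromosome 1, 5082978) in the starved lists and 160 and 173 bp from it in the normal lists. The normal peaks did not reach this end, and the wider starved peaks crossed it.

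**Figure D2:**
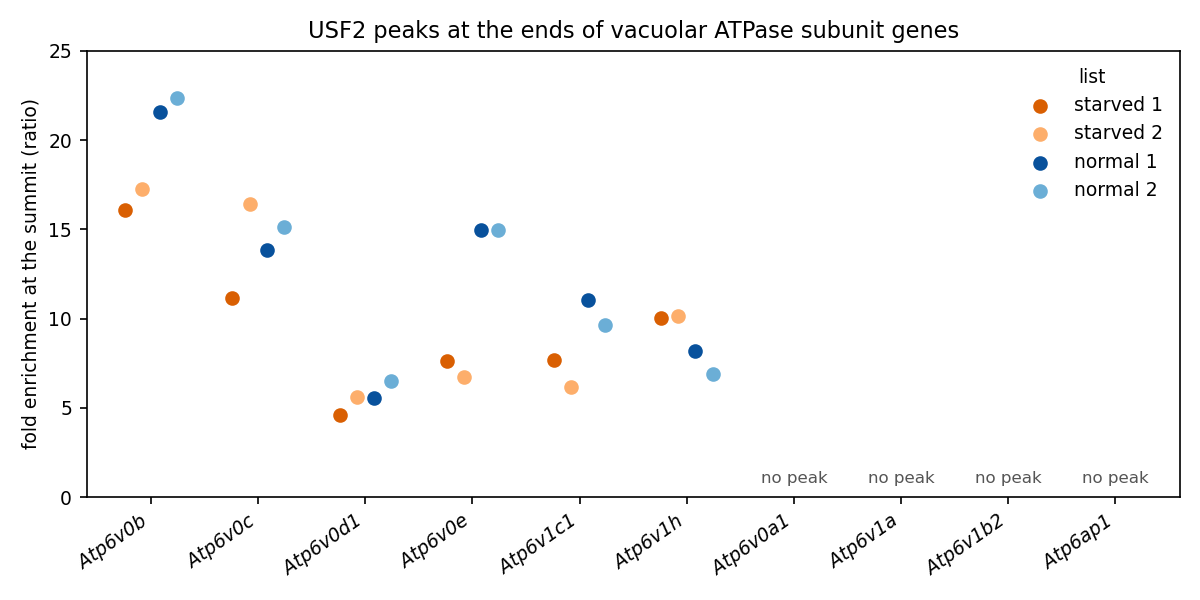
Fold enrichment at the summit, a ratio on a linear axis, for each member gene in the 4 lists, with the starved lists left of the normal ones. Atp6v0b is highest in each list, Atp6v0d1 lowest, and 4 members have no peak.

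**Figure D3:**
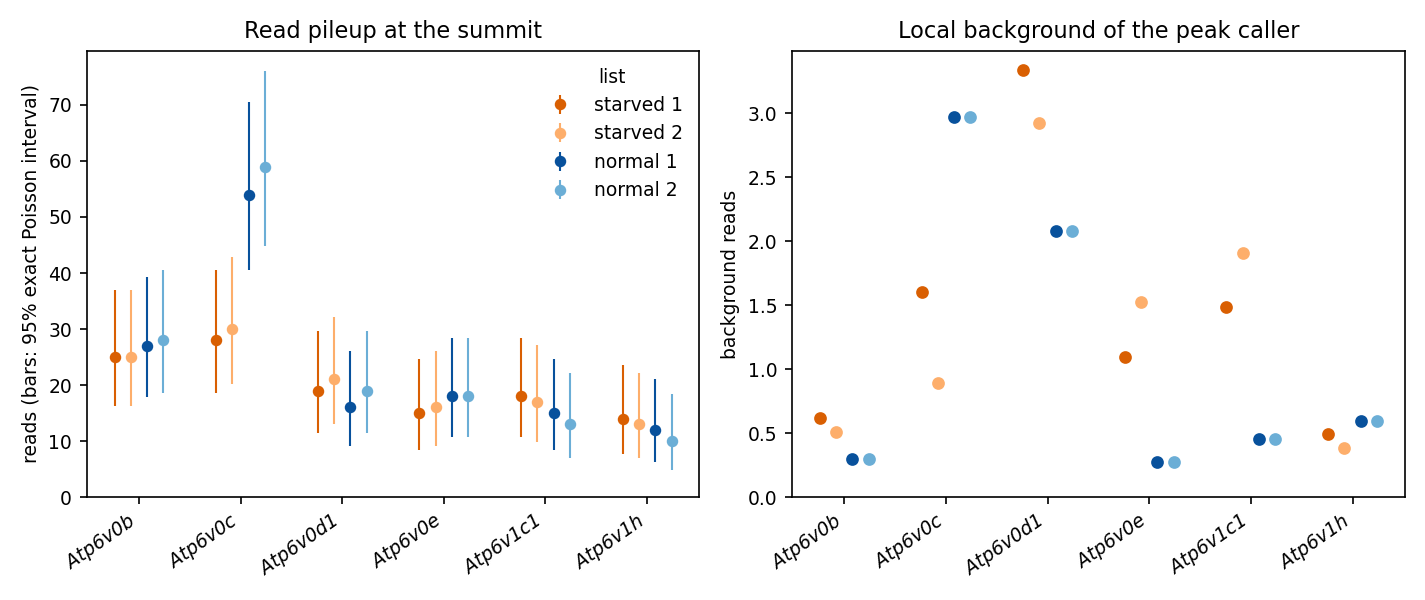
Reads at the summit with exact 95% Poisson intervals (left) and the peak caller's local background in reads (right) for the 6 called members. Backgrounds of the 2 normal lists coincide at each gene, while those of the 2 starved lists differ.

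The order of the 6 genes by fold enrichment was not the same in the lists of the 2 conditions. Behind Atp6v0b, both starved lists had Atp6v0c and then Atp6v1h, with Atp6v0e and Atp6v1c1 behind them. Both normal lists had Atp6v0e and Atp6v0c next, in either order, then Atp6v1c1 and Atp6v1h. Atp6v0d1 was last throughout. Within a list, the fold of Atp6v1h was 1.32 and 1.51 times that of Atp6v0e in the starved lists, against 0.546 and 0.462 times in the normal lists. This pair was picked after the values were seen, so the contrast is given with no test. Ordered by reads instead, Atp6v0c came first, Atp6v0b second and Atp6v1h last in all 4 lists.

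**Figure D4:**
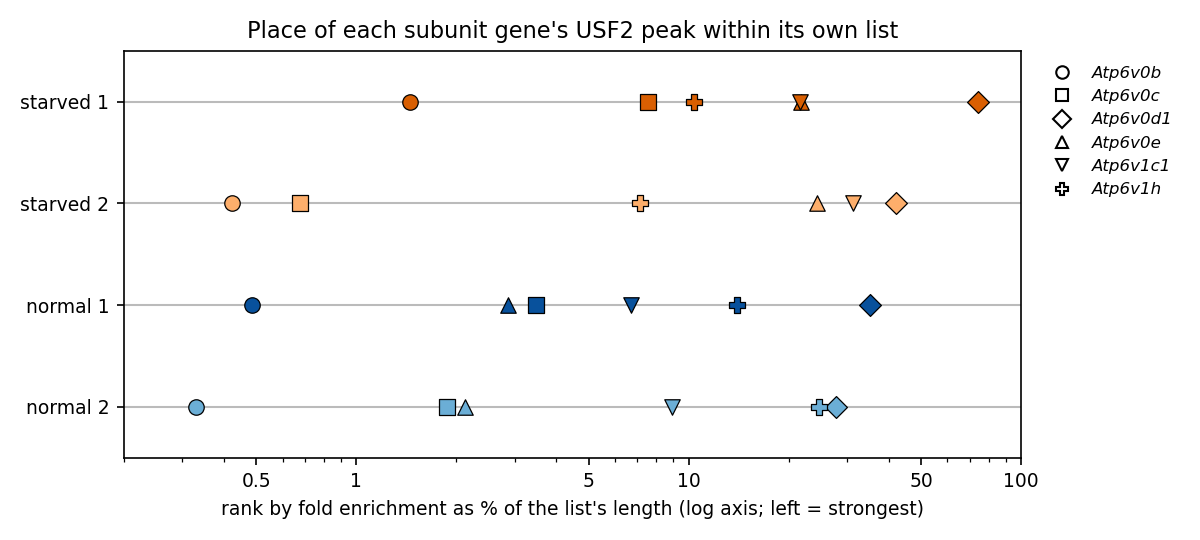
Rank of each called member's peak by fold enrichment as a percentage of its list's length, on a log axis with the strongest peaks at the left. Atp6v0b stands between 0.330% and 1.45% in the 4 lists, and Atp6v0d1 is the last member in each.

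The medians of the 6 member peaks at gene ends stood above those of their lists. These 6 were called in all 4 lists, whereas the peaks beside them include those called in fewer lists. The comparison is therefore not like for like, and the other genes called in all 4 lists were not set beside them. Their median fold enrichment was 8.85 and 8.44 in the starved lists and 12.4 and 12.3 in the normal lists. All gene-end peaks of the same lists had medians of 7.03 and 6.81 in the starved lists and 7.41 and 7.53 in the normal lists, and all peaks had 5.54 and 5.30 in the starved lists and 5.46 in both normal lists. The 6 include Atp6v0c, whose peak lay at the start of Amdhd2. Without it, the middle fold of the other 5 was 7.66 and 6.73 in the starved lists and 11.03 and 9.65 in the normal lists. In starved 2 this lay below the 6.81 of all gene-end peaks. In reads at the summit, the members' median was 18.5 and 19 in the starved lists and 17 and 18.5 in the normal lists, while all gene-end peaks had medians of 16 and 15 in the starved lists and 13 and 12 in the normal lists. Over all peaks the median reads were 8 and 6 in the starved lists and 5 and 6 in the normal lists. Of the 6 member peaks at a gene end, 5 and 3 in the starved lists and 5 and 4 in the normal lists lay above the median fold of all gene-end peaks. Within the first 10% of its list by fold lay 2 and 3 of these 6 in the starved lists and 4 and 4 in the normal lists. Atp6v0c was part of both counts in all 4 lists.

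**Figure D5:**
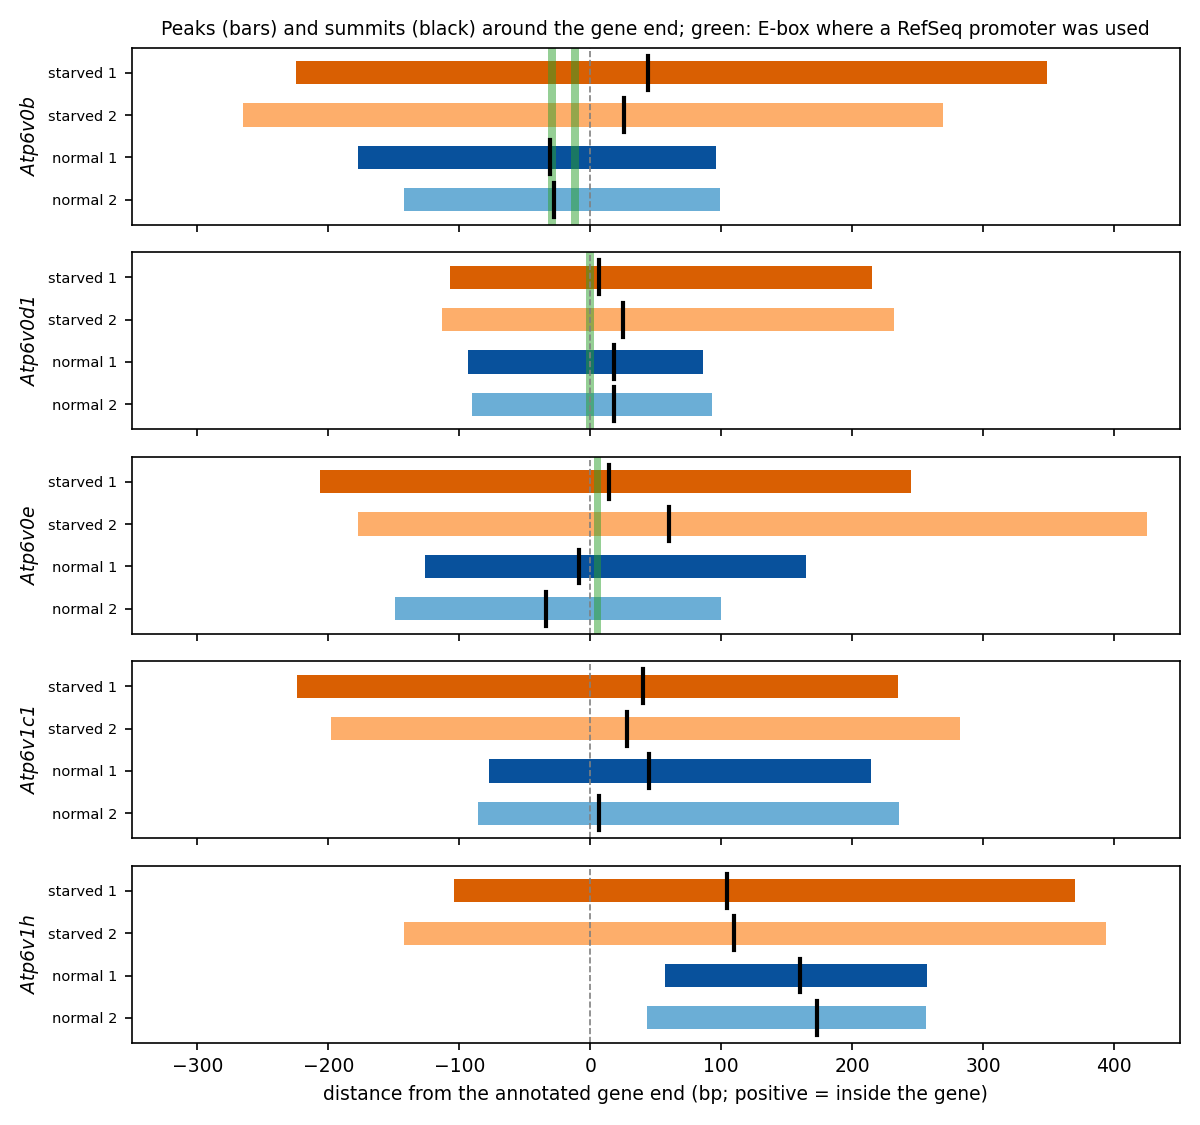
Extent of each peak (bars) and its summit (black) by distance in bp from the annotated gene end, positive inside the gene, for the 5 called members other than Atp6v0c. Green bands mark E-boxes in the promoters used, and all summits stand within 173 bp of the gene end.

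The 4 members without a call belong to both sectors. Atp6v0a1 encodes the V0 subunit that forms the proton path with the ring, Atp6v1a and Atp6v1b2 the catalytic and non-catalytic subunits of the ATP-hydrolysing ring, and Atp6ap1 an accessory protein needed for assembly. In sectors, 4 of 5 V0 members were called, 2 of 4 V1 members and 0 of 1 accessory gene. The V0 count includes Atp6v0c, whose peak lay at the start of Amdhd2. These counts hold for the chosen members only, since of the 16 other subunit genes 0 were called in all 4 lists. Gene length did not separate the classes, with spans of 3004 to 80236 bp among called members and 7625 to 54301 bp among the others.

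The nearest peak to Atp6v0a1 was called in all 4 lists, but 6267 to 6371 bp beyond the gene, at an end of Naglu (0 to 104 bp away), which encodes a lysosomal glycosidase. For Atp6ap1 it lay 8274 and 8239 bp away in the normal lists, within 73 bp of an end of Fam50a, and over 3 Mb away (3128887 and 3128812 bp) in the starved lists. Normal 2 had a peak of 8 reads 4919 bp from an end of Atp6v1a, and the nearest peak to Atp6v1b2 in any list lay 11523 bp away, in normal 1. Absence from a list means that no peak reached the caller's cutoff, and weaker binding at these 4 genes was not measured.

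CACGTG was searched in the RefSeq windows, where it reads the same on both strands, and TCACGTG, which contains it, on both strands. CACGTG was present in 7.84% of 21263 windows and TCACGTG in 4.39%. Of the 4 called members with a window, Atp6v0b, Atp6v0d1 and Atp6v0e held both and Atp6v0c held neither in its 3 windows. Of the 3 uncalled members with a window, Atp6v0a1 and Atp6ap1 held neither, and Atp6v1a held both, with the E-box starting 131 bases before its listed start. These few windows carry no test between the classes. Windows with an E-box and no summit within 1000 bp in any list were common, making up 76.2% of the 1666 windows with CACGTG. Conversely, 72.5% of the 229 windows with summits of all 4 lists within 1000 bp held CACGTG. The share of windows with such summits was 9.96% among those with CACGTG and 0.321% among the rest. The related E-box CATGTG, on both strands, was in 11.5% of windows. It occurred in 1 Atp6v0c window, that of the start at 24169450, which had no summit, and in the Amdhd2 window. The listed starts of Atp6v1a (44139259) and Atp6v0a1 (101010398) lie inside the annotated spans, which begin at 44139702 on the minus strand and at 101009422 on the plus strand, so these windows do not cover every end that was searched for peaks.

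The 16 other V-ATPase subunit genes were not called in both lists of either condition. Atp6v1g2, a paralogue of the stator subunit G, was called in normal 2 alone, by a peak of 5 reads and a fold enrichment of 5.08 that lay 928 bp from the gene end. No other gene of that list was called anywhere, so 1 of 16 (6.25%) was called in any list, beside 4.05% of all protein-coding genes. None of 11 assembly factors and regulators of the pump, such as Vma21, Tmem199 and the genes of the RAVE-like complex, was called in any list.

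A pair of lists of functional partners and 1 of a related enzyme were set beside the members. Of 20 lysosomal ion channel and transporter genes, 5 (25%) were called in all 4 lists: Clcn7, the chloride/proton exchanger that works beside the pump, Clcn6, Mcoln1, Slc36a1 and Laptm4b. Ostm1, the partner of Clcn7, was called in addition in both starved lists, and Ctns, the cystine exporter, in both normal lists. Clcn7 had fold enrichments of 11.4 and 13.2 in the starved lists, against 18.5 and 18.0 in the normal lists, below Atp6v0b in each list. Of 13 genes that anchor or regulate mTORC1 at the lysosome, Lamtor1 was called in all 4 lists, with 5.81 and 6.19 in the starved lists and 10.9 and 10.1 in the normal lists, and Flcn in both normal lists. Of 18 genes of the mitochondrial ATP synthase, which is built like the V-ATPase, none was called in all 4 lists, and 1, the inhibitor gene Atpif1, in both normal lists (6.08 and 7.60). Over all protein-coding genes, 1.13% were called in all 4 lists, 1.78% in both starved lists and 2.19% in both normal lists. At such shares, few calls or none among 13 or 18 genes say little about those lists. These lists are small and were drawn up with earlier results known, so the counts are descriptions.

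Atp6v0b was also set against the 241 protein-coding genes other than the members that were called in all 4 lists, by the distance between their ranks on a log10 scale over the 4 lists. Nearest were Nsmce2 and Washc5, which share 1 region with ranks of 14 and 4 in the starved lists and 10 and 16 in the normal lists (distance 0.390). Washc2 followed, with ranks of 9 and 6 in the starved lists and 5 and 25 in the normal lists (distance 0.608).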

How the data were processed

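USF2 ChIP-seq peak lists of 2 starved and 2 normal libraries were used. Of 12 samples, the input and H3K27ac libraries were not analysed here. Per the submitters' processing notes, reads were processed on the build GRCm38 with tools that include deepTools (3.5.1), the peak caller MACS2 (version 2.2.7.1) and the aligner Bowtie2 (version 2.5.1). Parameters are not given in the sources used here. The authors deposited 1 list per library, with a fold enrichment (a ratio), −log10 p and −log10 q values and a score for each peak. The deposited score repeats −log10 q, multiplied by 10 and truncated, and was not used further. Peaks on unplaced contigs (8) were left out. Reads and local background were recovered from fold and −log10 p as the whole number whose Poisson tail matched best, and every peak matched within 0.000265. This step was tested on simulated peaks. Intervals cover counting error only. The authors' local background can rest on input reads, which the sources used here do not state.

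Genes and promoters came from RefSeq tables of GRCm38.p6, which give no exons. Strand was taken from the promoter table. The members and gene lists were chosen with earlier results of these data known. All 10 members are named, and genes of other lists where both lists of a condition called them. Atp6v1g2 was named as the single call of its list, and Vma21, Tmem199 and the neighbours after their values were seen. Of 89 listed symbols 85 matched by symbol and 4 by synonym, with 1 gene listed under 2 names. No test was made between conditions, because fold enrichments are values within a list. Python 3.11.15, pandas 2.3.3 and scipy 1.17.1 were used.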

Additional observations from a re-analysis of the deposited data

How the results depend on the processing

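The calls of the 10 members did not depend on most settings. With a window of 500 or 5000 bp, −log10 q of at least 5, each list cut to as many peaks as the shortest list has, at least 10 reads at the summit, or any overlap of a peak with the window, the counts of members called in both starved lists, both normal lists, all 4 lists and any list each stayed within 1.5 times their values above. Leaving out any 1 of the 4 lists could not change these counts, since each member was called in all 4 lists or in none. That setting is therefore no check of them. At −log10 q of at least 5, Atp6v0d1 kept 3 of its 4 lists. With listed gene starts in place of both ends, each of these 4 counts was 3, since Atp6v0c lost its call and Atp6v1c1, Atp6v1h and Atp6v1b2 do not enter that setting. At 5000 bp, 1 list called Atp6v1a. The single call among the other subunit genes, Atp6v1g2, fell away (0 genes) with 500 bp, with −log10 q of at least 5, with shortened lists, with at least 10 reads and with listed starts, and without 1 list in turn the count lay between 0 and 1, with 0 where normal replicate 2 was left out. No paired analysis was made, since the counts of called genes come from no test. The labels do not say whether equal replicate numbers pair a starved with a normal library. Library depth was not analysed here, and the reads at member summits, 10 to 59, limit the precision of each value.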
